A study of Mus musculus with 19 samples.

Results

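The genes described here are the core splicing genes of the tables: the heterogeneous nuclear ribonucleoproteins (hnRNPs), the SR proteins, the Sm and other small nuclear ribonucleoprotein (snRNP) proteins, the SF3 and U2AF factors, and the numbered PRPF factors. Earlier results of these data were known when this group was chosen. Its genes were taken by symbol, as all symbols that start with Hnrnp, Srsf and a digit, Snrp, Sf3a or Sf3b, Prpf and a digit, or U2af. The choice gave 68 of the 14459 genes: 20 hnRNP genes, 11 SR genes, 12 Sm and snRNP genes, 12 SF3 and U2AF genes and 13 PRPF genes. All 68 passed the filter on low counts in both assays and were tested.

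Introns are removed from pre-mRNA by the spliceosome, which is built anew on each intron from RNA-protein particles. The U1 particle marks the 5′ splice site, U2AF and the U2 particle with its SF3A and SF3B parts mark the 3′ splice site and the branch point, and the tri-snRNP of U4, U6 and U5 then joins before catalysis. hnRNPs and SR proteins bind the pre-mRNA and often act against each other on the choice of exons. Many of them keep their own level in check through splicing of their own transcripts, and several hnRNPs also act on mRNA in the cytoplasm of neurons. In brain, as in other tissues, these genes are expressed in most cell types.

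Acute hippocampal slices came from male C57BL/6 mice aged 28 to 35 days that lack Fmr1 (KO) and from their wild-type littermates (WT). Slices of both genotypes were 400 µm thick, rested at 30 °C for 3 to 4 h and received cycloheximide, which halts ribosomes, at 100 µg/ml. Each replicate is a pool of 8 to 10 slices from 6 to 8 mice, so the spread between replicates is a spread between pools, and the values are averages over all cells of the slices. Per the protocol CA3 was trimmed away so that CA1 made up more of the tissue, but the labelled source includes cortex. From each lysate cytoplasmic RNA was sequenced (RNA), and from the rest the mRNA pieces protected by ribosomes (footprints); 3 KO and 4 WT pools are in the tables for each assay. Levels are in TPM, which corrects for gene length and so allows levels of different genes to be set side by side. Differences are log2 fold changes of KO over WT from the estimated counts, given with their standard error, and a gene is called higher or lower where its Benjamini-Hochberg adjusted p from edgeR, over all genes of the assay, is under 0.05.

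RNA libraries held 4.97 to 9.96 M estimated counts and footprint libraries 15.6 to 22.7 M, so that the median of the 68 genes was 157 to 340 counts in RNA and 1328 to 2023 in footprints. Fmr1 itself was at 46.3, 44.7, 43.8 and 42.7 TPM in the footprints of WT pools and at 4.81, 4.59 and 5.03 TPM in those of KO pools, and its RNA at 17.3, 16.6, 19.3 and 15.99 TPM and 5.31, 4.07 and 3.90 TPM, which bears out the genotype labels of all 14 libraries. Some marker genes of other cell types moved with genotype. Footprints of 8 of 8 microglial markers were lower in KO, with a summed level of 497 to 533 TPM in KO pools and 599 to 622 TPM in WT pools. Markers of fibroblasts and meninges were lower for 5 of 6, at 232 to 241 TPM against 296 to 332 TPM, and thalamic markers were higher for 4 of 6, at 153 to 161 TPM against 121 to 153 TPM. Haemoglobin genes, the blood markers, were lower for 2 of 2 in both assays, with medians of -1.36 in footprints and -1.52 in RNA. Footprints of 3 of 6 markers of mature oligodendrocytes were lower. Of 5 markers of oligodendrocyte precursors, 2 were lower in footprints (Pdgfra and Cspg4) and 2 in RNA (Cspg4 and Olig2). The summed footprints of 6 neuronal markers overlapped, at 9065 to 9222 TPM in KO and 9083 to 9216 TPM in WT, with Eno2 called higher and Map2 lower. Their summed RNA did not overlap, at 2635 to 2792 TPM in KO and 2460 to 2566 TPM in WT, with Snap25 called higher. Single neuronal markers went both ways in RNA, with a median log2 fold change of 0.039. Snap25, Eno2 and Syt1 were at 0.22, 0.17 and 0.12, and Map2, Rbfox3 and Stmn2 at -0.15, -0.13 and -0.042. In tissue, fewer cells of a type and less RNA per cell cannot be told apart. The part of these markers in the results on splicing genes was not tested.

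Promoter windows of 300 bases, from 250 before to 50 after the RefSeq start, were at hand for 59 of the 68 genes (GRCm38.p6, from which the positions of genes below are taken as well). Matches were counted on both strands to CCAAT, the CCAAT box, and to CCGGAAG, a core of ETS factor sites (their letters cannot overlap each other). A CCAAT match was found for 30 of the 59 splicing genes (50.8%), against 42.5% of 10897 genes of the tables with a window. By family it was found for 13 of 18 hnRNP genes (72.2%), 6 of 11 PRPF genes (54.5%), 4 of 10 Sm and snRNP genes, 4 of 11 SR genes (36.4%) and 3 of 9 SF3 and U2AF genes (33.3%). The ETS core was found for 20 of the 59 splicing genes (33.9%) against 17.7% of all genes, and within them for 6 of 9 SF3 and U2AF genes but 2 of 18 hnRNP genes. Of the other motifs searched, GGGCGG, the site of SP and KLF factors, was in 67.8% of splicing genes and 67.7% of all genes, CACGTG in 15.3% and 11.3%, TATAAA in 11.9% and 8.93%, the NRF1 core GCGCATGCG in 6.78% and 3.81%, the YY1 core AAGATGGCG in 3.39% and 3.17%, the ZBTB33 core TCTCGCGAG in 3.39% and 1.47%, and TGACGTCA in 3.39% and 3.49%. A C followed by 4 pyrimidines at the listed start, as in mRNAs with a pyrimidine-rich beginning, was found for 3.39% and 2.95%. Genes with several listed starts were counted once if any window held a match. A match is a description of the letters and not evidence of a bound factor. The 5 windows below belong to genes whose footprints were higher in KO and show both arrangements, the first 3 with CCAAT and the last 2 with the ETS core; capitals mark these matches on either strand, and each is written 5′ to 3′ along the gene.
Hnrnpa1, chr15:103240147-103240446, plus strand: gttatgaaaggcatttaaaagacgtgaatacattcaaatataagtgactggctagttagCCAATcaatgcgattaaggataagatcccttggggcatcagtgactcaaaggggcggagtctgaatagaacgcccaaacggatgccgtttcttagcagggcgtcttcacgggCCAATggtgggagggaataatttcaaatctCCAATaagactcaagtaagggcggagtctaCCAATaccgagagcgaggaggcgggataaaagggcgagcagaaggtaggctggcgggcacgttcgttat
Hnrnpk, chr13:58402068-58402367, minus strand: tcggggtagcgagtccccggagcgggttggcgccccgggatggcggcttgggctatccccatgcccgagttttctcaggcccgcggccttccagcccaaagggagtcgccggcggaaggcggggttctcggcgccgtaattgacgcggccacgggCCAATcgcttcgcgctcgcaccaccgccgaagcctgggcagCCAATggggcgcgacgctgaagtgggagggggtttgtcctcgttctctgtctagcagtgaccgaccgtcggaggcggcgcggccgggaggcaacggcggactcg
Hnrnph2, chrX:134600929-134601228, plus strand: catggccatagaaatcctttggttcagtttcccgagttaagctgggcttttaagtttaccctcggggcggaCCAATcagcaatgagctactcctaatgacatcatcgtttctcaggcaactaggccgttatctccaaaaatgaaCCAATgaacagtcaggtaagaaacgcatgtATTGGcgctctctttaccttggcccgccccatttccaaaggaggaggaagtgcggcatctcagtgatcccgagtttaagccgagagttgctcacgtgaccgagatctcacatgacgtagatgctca
Prpf6, chr2:181601069-181601368, plus strand: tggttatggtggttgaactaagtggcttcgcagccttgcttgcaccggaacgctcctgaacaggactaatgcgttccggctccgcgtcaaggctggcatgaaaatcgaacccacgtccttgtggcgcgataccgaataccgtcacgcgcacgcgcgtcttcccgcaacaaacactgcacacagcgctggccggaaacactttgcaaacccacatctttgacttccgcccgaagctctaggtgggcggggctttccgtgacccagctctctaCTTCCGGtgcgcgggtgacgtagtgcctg
Sf3a2, chr10:80798485-80798784, plus strand: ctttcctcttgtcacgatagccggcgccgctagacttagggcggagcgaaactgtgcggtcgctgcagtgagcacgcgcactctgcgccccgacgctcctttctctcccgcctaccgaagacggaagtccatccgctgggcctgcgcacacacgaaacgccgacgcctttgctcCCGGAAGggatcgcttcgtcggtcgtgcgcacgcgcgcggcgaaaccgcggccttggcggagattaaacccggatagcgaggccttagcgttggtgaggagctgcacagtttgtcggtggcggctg

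More of the splicing genes were called higher than lower in KO, in both assays. In footprints 21 of 68 were higher (30.9%) and 1 was lower, whereas 8.15% of all 14438 genes tested were higher and 10.4% were lower. In RNA 11 of 68 were higher (16.2%) and 0 were lower, whereas 2.11% of all 13877 genes tested were higher and 2.77% were lower. At an unadjusted p under 0.05, edgeR gave 27 members higher and 0 lower in RNA, and DESeq2 and limma also called 0 lower. The share of all genes under this unadjusted threshold was not counted, here or below, so unadjusted counts have no background beside them. The changes were small. The median log2 fold change of the 68 genes was 0.081 in footprints, against -0.00015 for all genes, and 0.13 in RNA, against -0.0049. The highest value of any member was 0.30 in footprints and 0.49 in RNA.

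**Figure D1:**
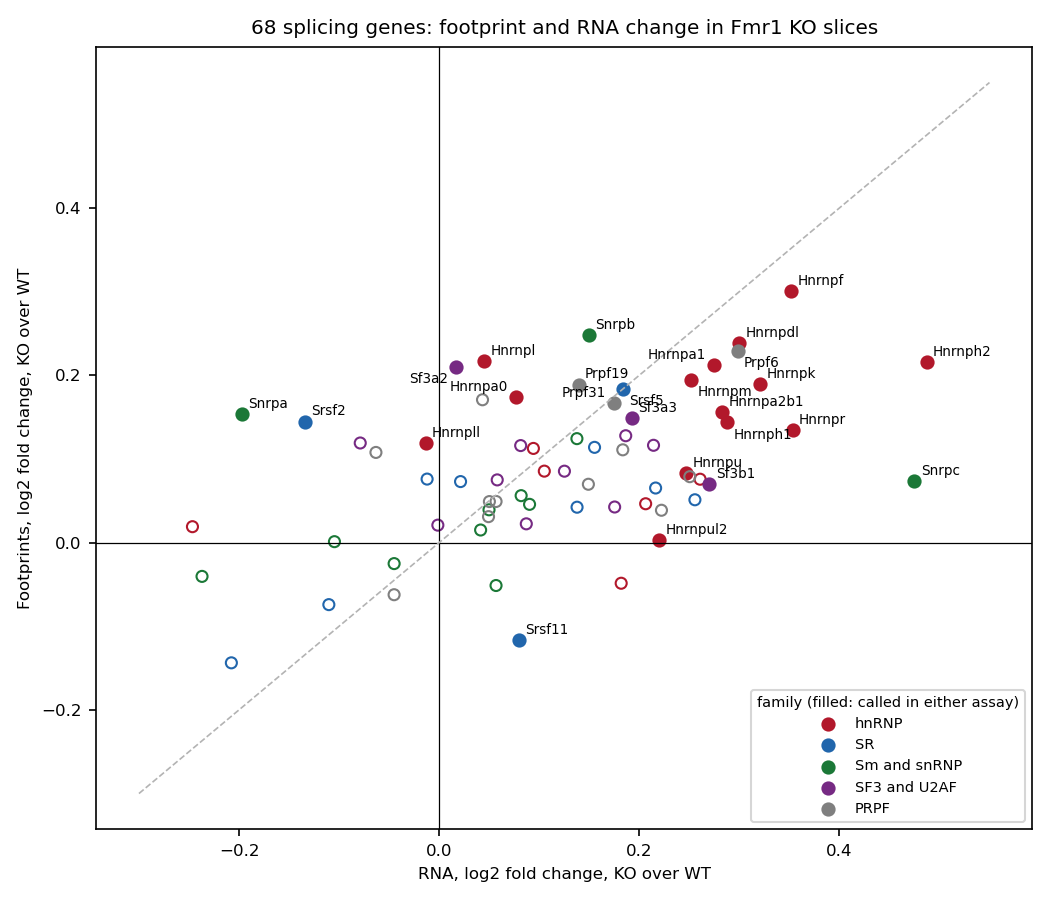
Log2 fold change of KO over WT in RNA (x axis) and in footprints (y axis) for each of the 68 splicing genes, coloured by family. Filled points are called in either assay, and the dashed line marks equal change. Most points lie right of 0 and above 0, and hnRNP genes fill the upper right, led by Hnrnpf at 0.35 in RNA and 0.30 in footprints.

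The sign of the difference was shared widely. In footprints 60 of 68 log2 fold changes were above 0, and in RNA 54 of 68, against 50.0% and 48.7% of all genes tested. Every KO pool lay above every WT pool for 30 of 68 genes in footprints, where 15.1% of all genes do so, and for 26 of 68 in RNA, where 9.19% do so. The reverse order held for 1 gene in footprints and 2 in RNA, against 15.6% and 10.3% of all genes. The KO pools were not alike. KO pool 1 had the highest footprint level of the 7 libraries for 44 of 68 members and 15 of 20 hnRNP genes, and it was also the highest for 29.4% of all genes. In the fit that leaves out this pool, 16 members were called higher in footprints and 6 in RNA. Calls over all genes in that fit are not given here, so the drop cannot be read as particular to the members.

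**Figure D2:**
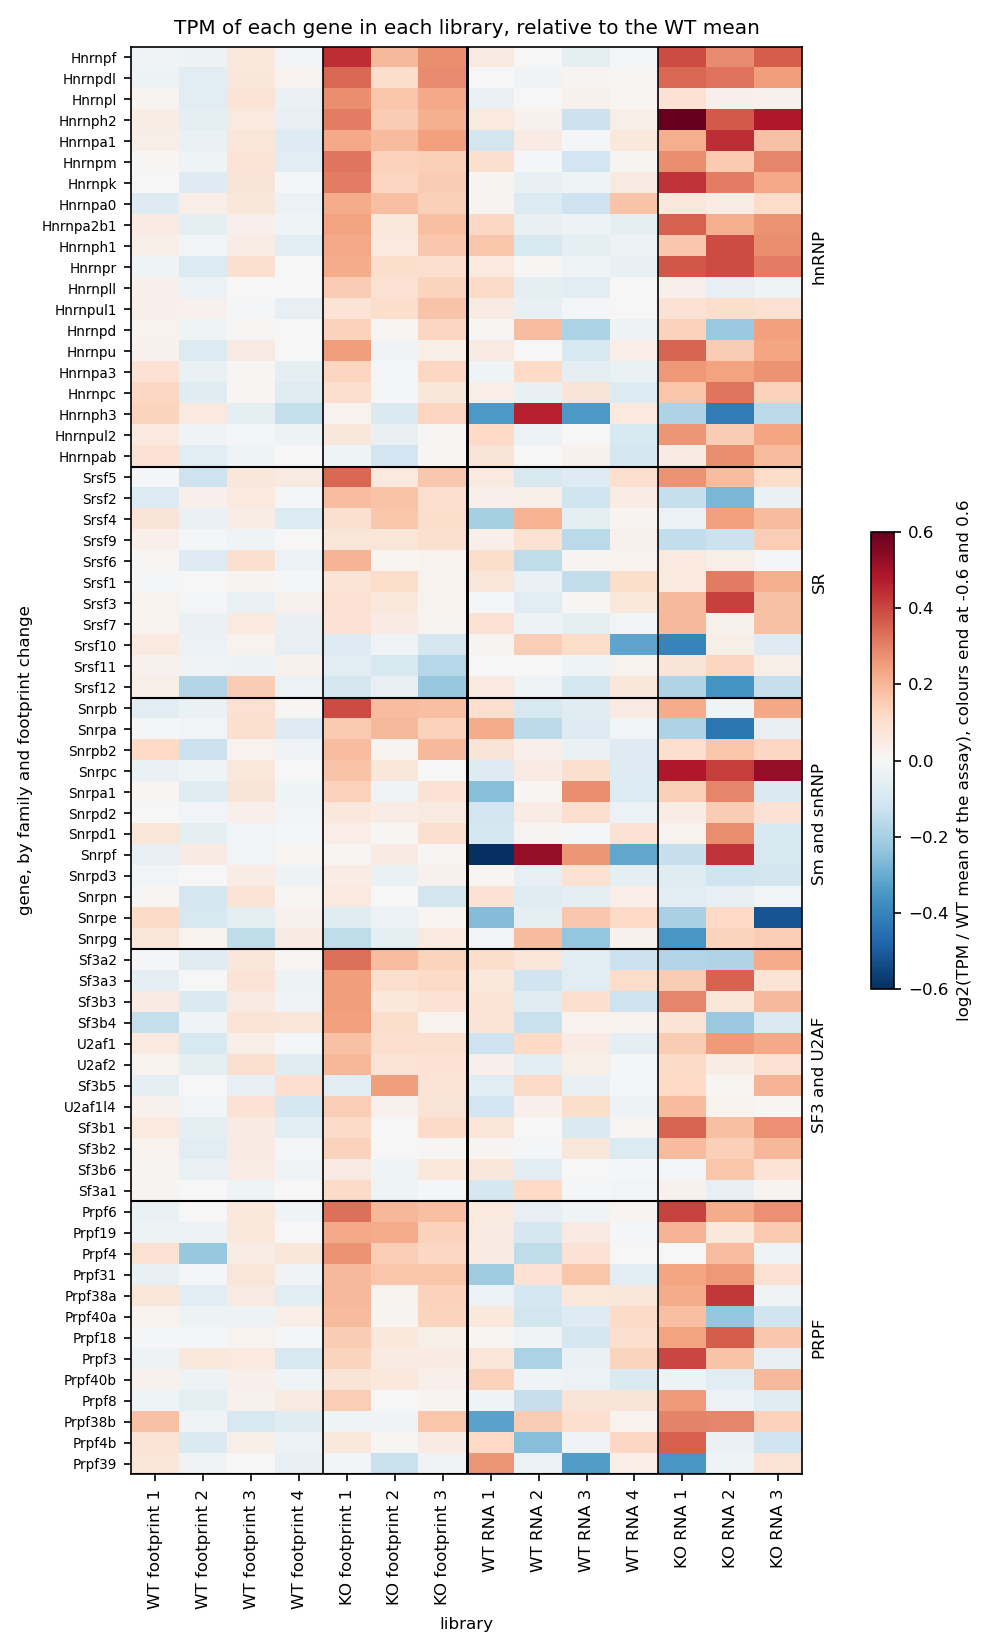
Level of each of the 68 genes (rows, by family and footprint change) in each of the 14 libraries (columns), as log2 of TPM over the WT mean of that assay. Red is above the WT mean and blue is below, with colours ending at -0.6 and 0.6. Red fills the KO columns of the upper hnRNP rows in both assays, and KO footprint 1 is the reddest footprint column.

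hnRNP genes made up 12 of the 21 members called higher in footprints and 8 of the 11 in RNA. In footprints that is 12 of 20 (60.0%), with a median of 0.14, and in RNA 8 of 20 (40.0%), with a median of 0.25. At an unadjusted p under 0.05 there were 14 of 20 in each assay, without a count over all genes to set beside it. DESeq2 called 12 hnRNP genes higher in footprints and 7 in RNA, and limma 11 and 6, without the share of all genes called by these tools. Their summed footprints were 4559 ± 146 TPM (SD, n = 4) in WT and 5027 ± 270 TPM (SD, n = 3) in KO, and all 3 KO pools, at 4755 to 5294 TPM, lay above the WT range of 4396 to 4683 TPM. Their summed RNA was 1174 ± 19.1 TPM (SD, n = 4) in WT and 1352 ± 26.2 TPM (SD, n = 3) in KO, with KO pools at 1328 to 1380 TPM and WT pools at 1157 to 1199 TPM.

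**Figure D3:**
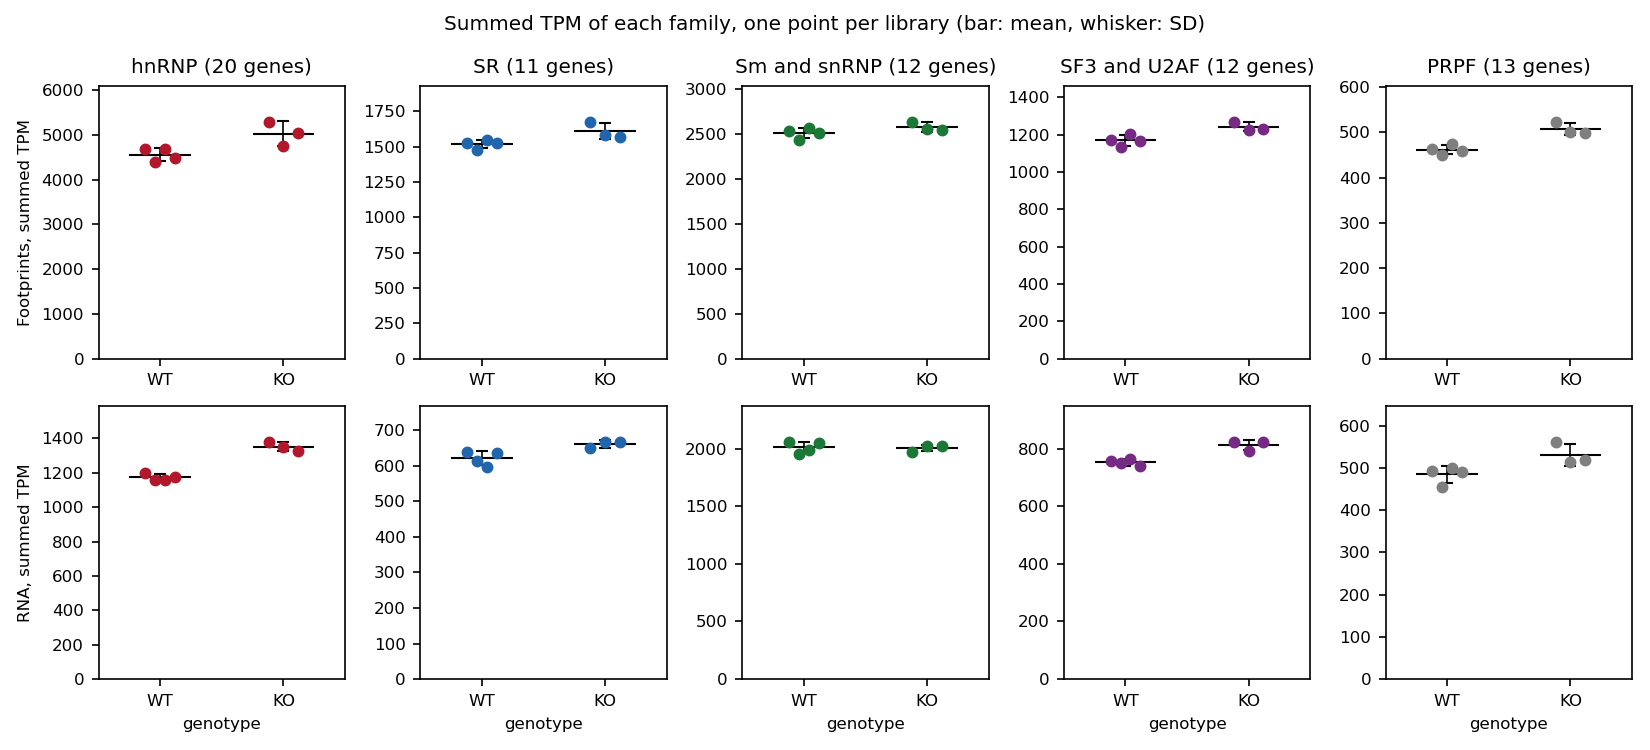
Summed TPM of each family in footprints (upper row) and RNA (lower row), with 1 point per library, the mean as a bar and the SD as a whisker; each axis starts at 0. The hnRNP sums of the 3 KO pools lie above those of the 4 WT pools in both assays, while the RNA sums of the Sm and snRNP family overlap, at 1974 to 2024 TPM in KO and 1953 to 2058 TPM in WT.

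Hnrnpf and its relatives of the H and F group bind G-rich RNA and set the use of nearby exons. Hnrnpf (chromosome 6, 117900340 to 117925622) was at 107, 106, 113 and 107 TPM in WT footprints and at 148, 124 and 132 TPM in KO footprints, and its RNA was at 51.8, 50.0, 48.1 and 49.7 TPM in WT and 65.6, 60.8 and 64.2 TPM in KO. The groups did not overlap in either assay, and both differences were called by edgeR: footprints rose by 0.30 ± 0.048 (adjusted p = 0.00224) and RNA by 0.35 ± 0.060 (adjusted p = 0.00741). Hnrnph2 (chromosome X, 134601179 to 134607060) gave the largest RNA difference of the 68 genes. Its RNA was at 23.4, 22.9, 20.6 and 23.005 TPM in WT pools and 34.3, 29.0 and 31.3 TPM in KO pools, a difference of 0.49 ± 0.077 (edgeR adjusted p = 0.00564). In footprints it stood at 226, 210.1, 228 and 212 TPM in WT and 271, 243 and 254 TPM in KO, again with no overlap, and rose by 0.22 ± 0.041 (adjusted p = 0.00462). Hnrnph1, the closest relative of Hnrnph2, was called in footprints at 0.14 ± 0.041 (edgeR adjusted p = 0.0311) and not in RNA, at 0.29 ± 0.081 (adjusted p = 0.0525), and Hnrnph3 was called in neither. Hnrnph1, Hnrnph2 and Hnrnpf share sequence, so reads that fit more than 1 of them were split by estimate, and a change of one can appear in part under another.

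Hnrnpk binds C-rich RNA through KH domains and acts in splicing, transcription and translation. Its footprints (chromosome 13, 58391132 to 58403343) were at 656, 621, 692 and 653 TPM in WT pools and 810.0, 716 and 729.8 TPM in KO pools. All 3 KO pools were above the WT pools, with a rise of 0.19 ± 0.043 (edgeR adjusted p = 0.0111). Its RNA, at 195, 187, 189 and 200.04 TPM in WT and 261, 238 and 226 TPM in KO, rose by 0.32 ± 0.054 (adjusted p = 0.00665), also without overlap. Hnrnpr, an RNA-binding protein of the same branch as Syncrip, was at 24.1, 23.3, 22.7 and 22.5 TPM of RNA in WT and 29.9, 30.3 and 28.6 TPM in KO, a clear gap and a rise of 0.35 ± 0.066 (edgeR adjusted p = 0.00999). In footprints it was at 103, 98.9, 112 and 105 TPM in WT and 122, 113 and 112 TPM in KO. The lowest KO pools and the highest WT pool were almost level there, and the difference of 0.13 ± 0.041 was called narrowly (edgeR adjusted p = 0.0418), but not when any 1 of the pools other than WT 3 was left out (adjusted p up to 0.12) or with limma (0.063).

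The A and B hnRNPs coat nascent transcripts and favour exon skipping, and Hnrnpa2b1 also binds mRNAs that are carried into neuronal processes. Hnrnpa2b1 (chromosome 6, 51460434 to 51470048) had the most footprints of all hnRNP genes, at 874, 813, 863 and 831 TPM in WT and 999.7, 884 and 958 TPM in KO. The lowest KO pool stood just above the highest WT pool, and the difference of 0.16 ± 0.042 (edgeR adjusted p = 0.0227) was not called without KO 1, KO 3, WT 2 or WT 4 (up to 0.079). Its RNA was at 67.3, 60.0, 60.5 and 59.5 TPM in WT and 79.0, 71.9 and 74.6 TPM in KO, a rise of 0.28 ± 0.065 (edgeR adjusted p = 0.0228) that was not called without KO 1, WT 2 or WT 4 (up to 0.076). Hnrnpa1 (chromosome 15, 103239943 to 103246698) was at 82.2, 77.9, 84.4 and 76.0 TPM in WT footprints and 93.8, 91.4 and 95.0 TPM in KO footprints, with a gap between the groups and a rise of 0.21 ± 0.041 (edgeR adjusted p = 0.00501). Its RNA, at 46.4, 51.9, 49.8 and 52.4 TPM in WT and 58.3, 68.1 and 56.7 TPM in KO, did not overlap either, but the difference of 0.27 ± 0.080 missed the threshold (adjusted p = 0.06). Hnrnpa0, which binds AU-rich elements, was at 138, 149, 152 and 142 TPM in WT footprints and 169, 165 and 160.2 TPM in KO footprints. It rose there by 0.17 ± 0.040 (edgeR adjusted p = 0.0116), while its RNA overlapped between genotypes and differed by 0.077 ± 0.071 (adjusted p = 0.61). Processed copies of Hnrnpa1 and Hnrnpa3 in the genome can take some of their reads.

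Hnrnpl binds CA-rich RNA. Its footprints (chromosome 7, 28808546 to 28822268) were at 162, 153, 169 and 156 TPM in WT and 194, 179.9 and 187 TPM in KO, with all KO pools above all WT pools and a rise of 0.22 ± 0.038 (edgeR adjusted p = 0.00353). Its RNA was at 213, 219, 223 and 220.1 TPM in WT and 232, 223 and 223 TPM in KO. The RNA ranges all but touched, with a difference of 0.045 ± 0.049 (adjusted p = 0.67). The difference in footprints per RNA, 0.16 ± 0.060, was not called (edgeR adjusted p = 0.28). Hnrnpdl, a relative of the AU-rich element binding protein Hnrnpd, was at 172, 168, 184 and 178 TPM in WT footprints and 223, 189 and 213 TPM in KO footprints, a rise of 0.24 ± 0.049 (edgeR adjusted p = 0.00701) without overlap. Its RNA was at 22.2, 21.8, 22.4 and 22.3 TPM in the WT pools, which lay closely together, and 28.2, 27.8 and 26.4 TPM in KO pools. That RNA difference of 0.30 ± 0.072 (edgeR adjusted p = 0.027) was not called when KO 1, KO 2, WT 1, WT 2 or WT 4 was left out (up to 0.077). Hnrnpd itself was not called: its footprints differed by 0.085 ± 0.037 (adjusted p = 0.13) and its RNA by 0.11 ± 0.12 (adjusted p = 0.71).

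Among the other hnRNP genes, Hnrnpm and Hnrnpll were also called higher in footprints, and Hnrnpu and Hnrnpul2 in RNA. Hnrnpu, a nuclear matrix protein, differed by 0.25 ± 0.059 in RNA (edgeR adjusted p = 0.0269) and by 0.083 ± 0.053 in footprints (adjusted p = 0.33). Hnrnpul2, related to Hnrnpu, differed by 0.22 ± 0.061 in RNA (edgeR adjusted p = 0.0485) and by 0.0033 ± 0.036 in footprints; with limma the RNA of neither was called. Hnrnpab had the lowest footprint difference of the family, -0.049 ± 0.043 (edgeR adjusted p = 0.52), with 301, 271, 278 and 284 TPM in WT pools and 279, 262 and 286 TPM in KO pools, which overlapped. Leaving out WT 4 gave 8 hnRNP genes higher in footprints and 4 in RNA, and without KO 3 or WT 2 the footprint count was also 8. Without KO 1 the RNA count was 5, and with a covariate that separates replicates 1 and 2 from 3 and 4 it was 4. These counts stand without the share of all genes called in the same fits.

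SR proteins bind exonic enhancers and recruit U1 and U2AF. In footprints 2 of 11 were higher and 1 lower, where 8.15% of all genes were higher and 10.4% lower, so these counts are too small to set the family apart. The median was 0.065, and in RNA the median was 0.080 and edgeR called 0 of 11. In RNA 3 were higher at an unadjusted p under 0.05, without a count over all genes. Srsf5 had the largest difference in footprints, 0.18 ± 0.057 (edgeR adjusted p = 0.0432). It was at 336, 309, 353 and 349 TPM in WT footprints and 427, 351 and 377 TPM in KO footprints. KO 2 lay within the WT range and KO 1 far above it, and the call was lost without KO 1, KO 3, WT 1, WT 2 or WT 4 (adjusted p up to 0.14), with limma (0.065) and with the length trend removed (0.058). Srsf2, which like the other SR proteins acts on exon inclusion, was called higher in footprints at 0.14 ± 0.040 (edgeR adjusted p = 0.0275) while its RNA differed by -0.13 ± 0.078 (adjusted p = 0.36).

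Srsf11 was the single member called lower. Its footprints were at 69.0, 66.9, 66.4 and 69.0 TPM in WT pools and 64.8, 63.5 and 60.3 TPM in KO pools, with all KO pools below all WT pools, a difference of -0.12 ± 0.036 (edgeR adjusted p = 0.0424). The call did not hold with DESeq2, limma or scaling to library totals, nor when any 1 pool other than WT 3 was left out (adjusted p up to 0.17). Srsf12 had a lower estimate, -0.14 ± 0.075 (adjusted p = 0.28), at 12.0, 10.4, 13.0 and 11.4 TPM in WT and 10.9, 11.3 and 9.98 TPM in KO, and was not called. Srsf3, the SR gene with the most footprints, was at 403, 394, 387 and 405 TPM in WT and 423, 414 and 404 TPM in KO, which overlapped and differed by 0.051 ± 0.034 (edgeR adjusted p = 0.35). Its RNA, at 105, 101, 106 and 110.1 TPM in WT and 121, 140.2 and 119 TPM in KO, did not overlap, and the difference of 0.26 ± 0.075 missed the threshold (adjusted p = 0.0634).

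Sm and snRNP proteins form the ring around the small nuclear RNAs and the specific parts of U1 and U2. Footprints were higher for 2 of 12, where 8.15% of all genes were, with a median of 0.042. RNA was higher for 1 of 12, where 2.11% of all genes were, with a median of 0.053. These counts are too small to set the family apart. That RNA median rests on single pools: it was -0.027 without KO 2, 0.022 without WT 1 and 0.10 without KO 1. The footprint median was 0.027 without KO 3. Snrpb encodes the SmB ring protein and was at 159, 162, 178 and 167 TPM in WT footprints and 219, 189.6 and 189 TPM in KO footprints (chromosome 2, 130171636 to 130179382). All KO pools were above the WT pools, with KO 1 the highest and a rise of 0.25 ± 0.050 (edgeR adjusted p = 0.00633). Its RNA overlapped and differed by 0.15 ± 0.069 (adjusted p = 0.24). Snrpn encodes SmN, the copy of SmB used in neurons, and had the most footprints of this family. It was at 732, 679, 769.9 and 730.2 TPM in WT and 757, 726 and 675 TPM in KO, with overlap and a difference of -0.025 ± 0.043 (edgeR adjusted p = 0.79). The coding sequences of Snrpb and Snrpn are alike, and Snrpn transcripts also carry the Snurf reading frame, so footprints and reads of these genes were assigned by estimate.

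Snrpc, the C protein of the U1 particle, which helps it to hold the 5′ splice site, was called in RNA and not in footprints. Its RNA (chromosome 17, 27840028 to 27851968) was at 33.0, 36.1, 37.3 and 33.0 TPM in WT pools and 48.6, 46.5 and 50.2 TPM in KO pools, with a wide gap and a rise of 0.47 ± 0.089 (edgeR adjusted p = 0.00999). Its footprints, at 101, 102, 109 and 104 TPM in WT and 117, 109 and 104 TPM in KO, overlapped and differed by 0.074 ± 0.043 (adjusted p = 0.28). The difference in footprints per RNA was -0.41 ± 0.11 (edgeR adjusted p = 0.10), and it was the 1 member called lower in that measure by limma on log2(TPM + 1), at an adjusted p of 0.047. Snrpa, the A protein of U1, was called higher in footprints at 0.15 ± 0.041 (edgeR adjusted p = 0.0241) with an RNA difference of -0.20 ± 0.094 (adjusted p = 0.25). Snrpg, the SmG ring protein, had the lowest footprint difference of the family, -0.051 ± 0.071 (adjusted p = 0.71), and its pools overlapped at 143, 137, 122 and 140.4 TPM in WT and 122, 130.4 and 141 TPM in KO.

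In the SF3 and U2AF family, which recognises the branch point and the 3′ splice site, all 12 footprint differences were above 0. Of all genes tested 50.0% were above 0. In footprints 2 of the 12 were called higher, where 8.15% of all genes were. The median was 0.10 in footprints and 0.11 in RNA, where 1 of 12 was called higher, against 2.11% of all genes. These counts of calls are too small to set the family apart. At an unadjusted p under 0.05 edgeR gave 5 higher in each assay, without a count over all genes. Sf3a2, a subunit of SF3A in the U2 particle, was at 32.1, 30.7, 33.9 and 32.6 TPM in WT footprints and 40.6, 36.7 and 35.4 TPM in KO footprints, a rise of 0.21 ± 0.047 (edgeR adjusted p = 0.00972) with no overlap. Its RNA was at 16.04, 15.7, 14.3 and 13.6 TPM in WT and 13.2, 13.2 and 17.4 TPM in KO, which overlapped. Sf3a3, another SF3A subunit, was also called in footprints at 0.15 ± 0.045 (edgeR adjusted p = 0.0374), though not with DESeq2 or limma. Sf3a1, the remaining SF3A subunit, had the lowest difference of the family, 0.021 ± 0.037 (adjusted p = 0.79), with pools at 51.4, 50.8, 49.9 and 50.8 TPM in WT and 54.8, 49.7 and 50.5 TPM in KO.

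Sf3b1, the large SF3B subunit that holds the branch point helix, was called in RNA only. Its RNA was at 37.7, 35.9, 33.7 and 36.0 TPM in WT and 45.6, 40.6 and 43.4 TPM in KO, with no overlap and a rise of 0.27 ± 0.057 (edgeR adjusted p = 0.0167), which missed the threshold without KO 1 (0.053) and with limma (0.056). Its footprints overlapped, at 88.8, 82.1, 88.2 and 81.7 TPM in WT and 92.4, 85.2 and 92.3 TPM in KO, and differed by 0.070 ± 0.042 (adjusted p = 0.29). Sf3b6, the branch point contacting subunit and the family member with the most footprints, was at 269, 259, 274 and 263 TPM in WT and 276, 262 and 279 TPM in KO and differed by 0.022 ± 0.036 (edgeR adjusted p = 0.77). U2af1 and U2af2, which read the AG and the pyrimidine tract of the 3′ splice site, differed in footprints by 0.12 ± 0.039 and 0.12 ± 0.042 and were not called (edgeR adjusted p = 0.0582 and 0.078).

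PRPF genes encode parts of the tri-snRNP and of the complex that activates the spliceosome. Footprints were higher for 3 of 13, where 8.15% of all genes were, with a median of 0.079. RNA was higher for 1 of 13, where 2.11% of all genes were. These counts are too small to set the family apart. The RNA median was 0.14, or 0.064 over the 11 genes with a mean of at least 50 counts. Prpf6, a bridge between U5 and the U4/U6 part of the tri-snRNP, was at 24.0, 24.6, 25.7 and 24.2 TPM in WT footprints and 31.0, 28.3 and 27.9 TPM in KO footprints (chromosome 2, 181601319 to 181655661). The KO pools all lay above the WT pools, with a rise of 0.23 ± 0.041 (edgeR adjusted p = 0.00362), and its RNA, at 19.4, 18.0, 18.3 and 18.8 TPM in WT and 24.7, 21.7 and 22.5 TPM in KO, rose by 0.30 ± 0.063 (adjusted p = 0.017). The RNA call was lost without KO 1 (0.054) and with limma (0.051). Prpf6 was the single gene outside the hnRNP family that was called in both assays.

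Prpf19, the ubiquitin ligase that gives the Prp19 complex its name, was at 164, 163, 175 and 167 TPM in WT footprints and 196, 195 and 184 TPM in KO footprints, the most of its family. The groups did not overlap and the rise was 0.19 ± 0.035 (edgeR adjusted p = 0.00413). Prpf31, a protein of the tri-snRNP, was at 27.5, 28.2, 29.8 and 27.9 TPM in WT and 32.5, 31.8 and 31.8 TPM in KO, a rise of 0.17 ± 0.039 (edgeR adjusted p = 0.0114). RNA of these genes differed by 0.14 ± 0.053 and 0.17 ± 0.088 and was not called (edgeR adjusted p = 0.15 and 0.28). Prpf8, the U5 protein at the centre of the catalytic core, was at 31.1, 30.5, 32.2 and 32.8 TPM in WT footprints and 35.1, 31.7 and 32.0 TPM in KO footprints, which overlapped and differed by 0.049 ± 0.039 (adjusted p = 0.45). Prpf39, a U1-associated factor, had the lowest difference of the family, -0.062 ± 0.047 (adjusted p = 0.49), at 12.7, 11.9, 12.1 and 11.7 TPM in WT and 12.0, 11.01 and 11.9 TPM in KO.

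Set side by side, 7 of the 68 genes were called higher in both assays (Hnrnpf, Hnrnpdl, Hnrnph2, Hnrnpk, Hnrnpa2b1, Hnrnpr and Prpf6), 14 in footprints alone and 4 in RNA alone (Hnrnpu, Hnrnpul2, Sf3b1 and Snrpc). Of the 13875 genes tested in both assays 1.14% were higher in both, 7.34% in footprints alone and 0.973% in RNA alone. A call in 1 assay alone does not show that the assays differ. The test of that difference, in footprints per RNA, called 0 of 68 members in either direction with edgeR, where it called 0.0139% of all genes higher and 0.0208% lower. At an unadjusted p under 0.05, edgeR gave 3 members higher and 10 lower, without a count over all genes. DESeq2 called 0 of the members to which it gave an adjusted p, and limma on log2(TPM + 1) called the 1 member named above. The median difference in footprints per RNA was -0.039 for the 68 genes, -0.10 for the 20 hnRNP genes and -0.011 for all genes. Single pools moved the value of the 68 genes: it was -0.0088 without KO 2, close to the -0.0091 of all genes in that fit, -0.026 without WT 1, and -0.066 and -0.065 without KO 1 and without WT 2. The hnRNP value was -0.070 without KO 2 and -0.15 without KO 3. The RNA difference exceeded the footprint difference for 44 of 68 genes and 15 of 20 hnRNP genes, and for 51.1% of all genes tested in both. Across the 68 genes the footprint and RNA differences had a Pearson r of 0.46 (Spearman rho 0.43), and across all genes 0.43 (0.42); genes are not independent points, and both assays come from the same lysates.

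In WT slices splicing mRNAs carried many footprints for their RNA. The ratio of mean footprint TPM to mean RNA TPM had a median of 2.17 over the 68 genes and 0.777 over all genes. It was above the median of all genes for 61 of 68, and above their 90th percentile, 1.88, for 40 of 68 and 16 of 20 hnRNP genes. By family the median was 4.52 for hnRNP, 2.47 for Sm and snRNP, 2.21 for SR, 1.77 for SF3 and U2AF and 1.75 for PRPF genes. The ratio is of cytoplasmic footprints to RNA in a lysate, with each scaled to its own library, so a value of 1 has no meaning by itself. A ratio of CPM (counts scaled to the library total), without the length term, had a median of 2.67 over the 68 genes and 0.957 over all genes.

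**Figure D4:**
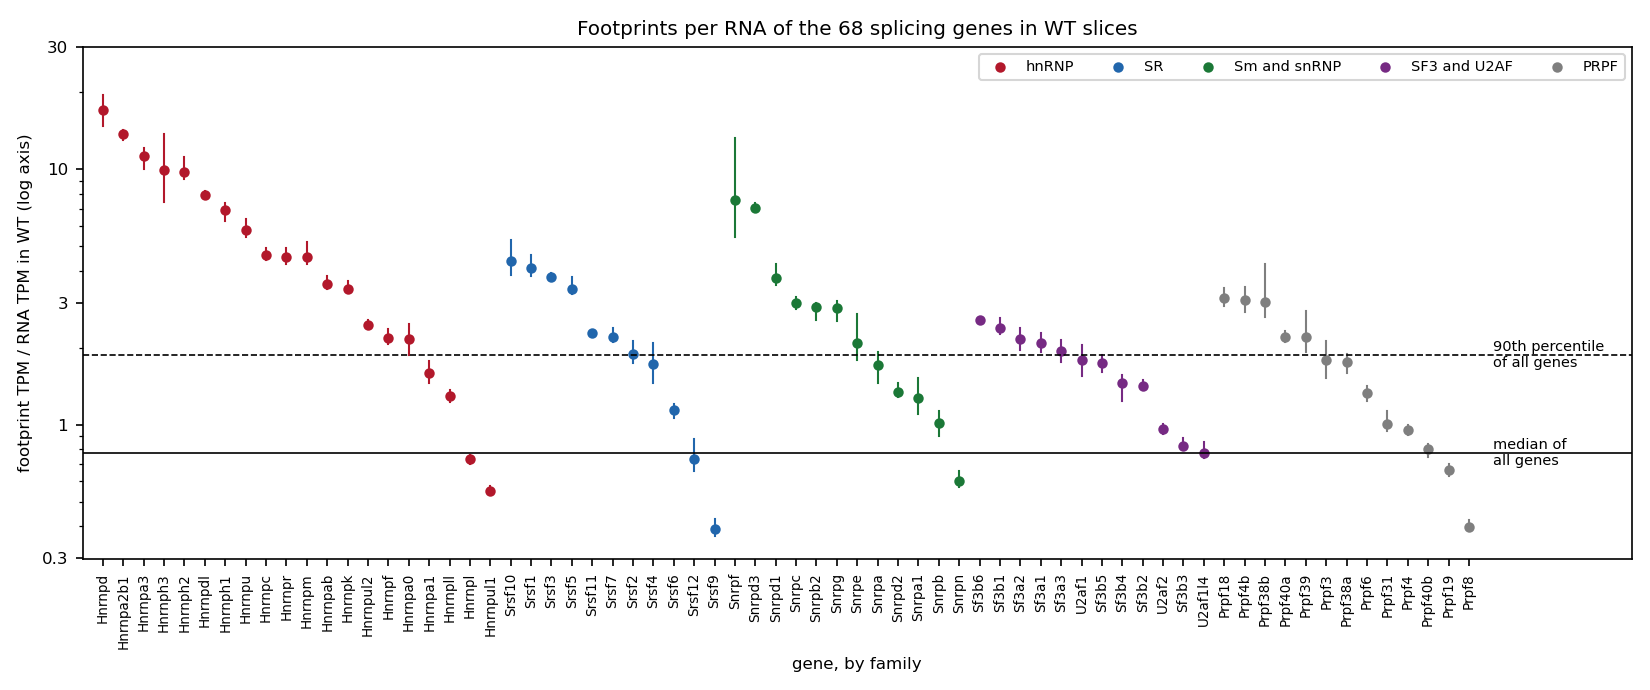
Ratio of footprint TPM to RNA TPM in WT for each of the 68 genes, by family on a log axis. Points are ratios of the means of 4 WT pools and lines run from the lowest to the highest lysate; the solid and dashed lines mark the median, 0.777, and the 90th percentile, 1.88, of all genes. hnRNP genes span 0.549 to 17.0, the widest range of the 5 families.

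The highest ratios belonged to Hnrnpd at 17.0, Hnrnpa2b1 at 13.7 and Hnrnpa3 at 11.2, with single lysates at 14.7 to 19.4, 13.0 to 14.3 and 10.0 to 12.1. The lysate ranges of these 3 genes did not overlap, but those of Hnrnpd and Hnrnpa2b1 all but met. The genes next in order were not set apart from Hnrnpa2b1 and Hnrnpa3: Hnrnph3 at 9.87 (lysates at 7.42 to 13.8) and Snrpf at 7.55 (5.41 to 13.2) overlapped both, and Hnrnph2 at 9.74 (9.17 to 11.1) overlapped Hnrnpa3. Hnrnpd had little RNA, 13.4, 15.2, 11.7 and 13.1 TPM in WT, beside 230.4, 223, 228 and 226 TPM of footprints, and Hnrnpa3 had 31.7, 35.2, 31.0 and 31.4 TPM of RNA beside 385, 352, 364 and 348 TPM. At the low end were Srsf9 at 0.390, Prpf8 at 0.398 and Hnrnpul1 at 0.549. Lysates of Srsf9, at 0.365 to 0.428, and of Prpf8, at 0.384 to 0.422, overlapped. Srsf9 had 92.9, 96.6, 81.2 and 92.4 TPM of RNA and 36.2, 35.3, 34.8 and 35.4 TPM of footprints in WT, and Hnrnpul1 had 64.8, 60.7, 62.4 and 62.6 TPM and 35.1, 35.0, 34.1 and 33.2 TPM. Close relatives could stand far apart: Hnrnpul2 was at 2.46, with lysates at 2.36 to 2.57, well above Hnrnpul1 with lysates at 0.531 to 0.577. In KO the medians were 2.18 for the 68 genes and 4.02 for hnRNP genes, and the highest ratios were those of Hnrnpd at 17.3, Hnrnpa2b1 at 12.6 and Hnrnph3 at 11.9, with Hnrnpa3 next at 9.94. The lowest in KO were Prpf8 at 0.398, Srsf9 at 0.424 and Hnrnpul1 at 0.559.

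The other genes of the splicing machinery, which have other names, were counted in 7 lists, written with earlier results of these data known. Of 164 such genes 34 were higher and 6 lower in footprints, and 7 higher and 1 lower in RNA, with medians of 0.064 and 0.082. Of all genes, 8.15% were higher and 10.4% lower in footprints, and 2.11% and 2.77% in RNA. Of 18 hnRNP relatives with other names, 12 were called in footprints, all higher, with a median of 0.15. Among them were Rbmxl1, a copy of the RNA-binding Rbmx, at 0.23 ± 0.038 (edgeR adjusted p = 0.00264) and Khdrbs1, the Sam68 splicing regulator, at 0.20 ± 0.035 (adjusted p = 0.00367). Pcbp2, a poly(C)-binding relative of Hnrnpk, rose in footprints by 0.26 ± 0.036 (edgeR adjusted p = 0.00126) while its RNA fell, at -0.18 ± 0.049 (adjusted p = 0.0446), and it was called in footprints per RNA at 0.43 ± 0.058 (adjusted p = 0.00136).

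Proteins of the catalytic step and the helicases had 6 of 32 genes called in footprints, all higher, led by Rbm22, which lines the catalytic centre, at 0.31 ± 0.046 (edgeR adjusted p = 0.0018). The exon junction complex and its export partners had 6 of 23 called, all higher, among them the export adaptor Alyref at 0.18 ± 0.035 (edgeR adjusted p = 0.00506). The SMN complex and snRNP assembly factors had 4 of 21 called, all higher, among them the arginine methyltransferase Prmt5 at 0.17 ± 0.035 (edgeR adjusted p = 0.00651). Of other U1, U2, U5 and U4/U6 proteins 6 of 36 were higher, such as Sart1 at 0.23 ± 0.046, and 2 were lower, Snrnp27 at -0.19 ± 0.042 and Lsm6 at -0.24 ± 0.050. Of 23 SR-related proteins, SR kinases and import receptors, 3 were called in footprints, all lower, including the SR import receptor Tnpo3 at -0.17 ± 0.039 (edgeR adjusted p = 0.0108), and of 11 minor spliceosome proteins 1 was called, Zrsr2, which was lower at -0.18 ± 0.054 (adjusted p = 0.0394). Against the 10.4% of all genes that were lower in footprints, the counts of 2 of 36, 3 of 23 and 1 of 11 lower are near or under the background. The counts of 6 of 32, 6 of 23, 4 of 21 and 6 of 36 higher stand beside 8.15% of all genes. Each of them rests on few genes, and no list was tested as a set.

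How far the calls rest on single libraries differed by gene. Of the 22 members called in footprints, 13 were called in all 7 fits that leave out 1 pool, namely Hnrnpf, Hnrnph2, Hnrnpl, Hnrnpk, Hnrnpdl, Hnrnpa1, Hnrnpa0, Hnrnpm, Prpf6, Prpf19, Prpf31, Sf3a2 and Snrpb. Of the 11 called in RNA, 5 were: Hnrnpf, Hnrnph2, Hnrnpk, Hnrnpr and Snrpc. Beside the genes named above, footprint calls were lost for Hnrnph1 without KO 1, KO 3, WT 2 or WT 4 (adjusted p up to 0.096), for Hnrnpll without KO 3, WT 2, WT 3 or WT 4 (0.099), for Snrpa without KO 2, KO 3, WT 2 or WT 4 (0.074), for Srsf2 without KO 1, KO 2, WT 1 or WT 4 (0.075), and for Sf3a3 without KO 1, KO 3, WT 1, WT 2 or WT 4 (0.14). RNA calls were lost for Hnrnpu without KO 1, WT 3 or WT 4 (0.086) and for Hnrnpul2 without any 1 pool other than WT 1 (0.14). The number of members higher in footprints fell from 21 to 14 without KO 3 or WT 2 and to 13 without WT 4, and the number higher in RNA fell from 11 to 6 without KO 1 and to 7 without WT 4. With the covariate for replicates 1 and 2 against 3 and 4 these counts were 16 and 7, and with limma 18 and 7. Calls over all genes change with the setting as well, so these falls cannot be read as particular to the members. The sign of the log2 fold change of a called member turned in 0 cases across the alternatives. Scaling moved the median of all genes by little, to 0.011 in footprints and 0.0042 in RNA when libraries were scaled to their totals alone.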

How the data were processed

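The tables deposited by the authors hold estimated counts and TPM for 14459 genes in 14 libraries. Of the 19 samples in the labels, 5 were not analysed here. Per the submitters' processing notes, the tools were cutadapt 1.7.1, Trimmomatic 0.32, Bowtie2 2.1.0, TopHat2 2.0.9, SAMtools 0.0.19, bedtools and RSEM 1.2.11, with mm10. Of the deposited estimated counts 0% are whole and 0% are 0, and the labels do not state what gave this. If a step had removed spread, the p-values would be too small; this was not tested.

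Estimated counts were rounded and tested per assay with edgeR 4.0.16 in R 4.3.3 (filterByExpr, minimum count 10; TMM; robust quasi-likelihood F-test; Benjamini-Hochberg over all genes, threshold 0.05). Standard errors were derived from F (size of the log2 fold change divided by its root). For footprints per RNA, the term tested was genotype by assay, fitted to the 14 libraries without a term for the shared lysate. A limma fit of the log2 ratio per lysate, which uses that pairing, gave a median difference of -0.048 for the 68 genes. In that fit the median was -0.10 for hnRNP genes and -0.012 for all genes. Alternatives were DESeq2 1.42.0, limma 3.58.1 on log2(TPM + 1), other scalings and filters, a length trend removed, covariates for replicates, and each pool left out in turn. The fits were also run on simulated counts with independent libraries, a fixed spread and no pool effect. That run cannot vouch for the p-values in these data.

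The splicing genes and all lists were chosen with earlier results of these data known. Genes given in every library are the 12 with the smallest footprint p, up to 8 called in RNA, the 3 highest and 3 lowest WT ratios, and in each family the gene with the most WT footprints and those with the highest and lowest footprint difference. Of each other list, up to 3 with the smallest footprint p are named. Srsf11 and the members named without values in every library were added because they were called, are close relatives of named genes, or carry a role described. Gene positions and promoter windows are from RefSeq (GRCm38.p6), and 68 of 68 symbols matched.

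Whether replicate numbers shared by KO and WT pair the pools was not settled. Deviations of same-numbered pools correlated at -0.35 to -0.067 in RNA and -0.44 to 0.012 in footprints. RNA and footprints of one number, taken as one lysate, correlated by this measure at only -0.046 to 0.17 in KO and 0.018 to 0.099 in WT. The measure therefore cannot exclude a pairing.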

Additional observations from a re-analysis of the deposited data

Results flagged for a closer look

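Among 136 groups of 4 WT pools (68 genes in 2 assays), 5 had a pool that stood apart from the other 3 by Dixon's ratio; chance gives about 1 in 20. In footprints, WT pool 3 was at 113.4 TPM for Hnrnpf, against 106.3 to 107.4 TPM in the others, and at 52.4 TPM for Prpf18, against 51.2 to 51.4 TPM. WT pool 2 was at 12.2 TPM for Prpf4, against 14.7 to 15.2 TPM. In RNA, WT pool 1 was at 67.3 TPM for Hnrnpa2b1, against 59.5 to 60.5 TPM, and WT pool 3 was at 58.2 TPM for Srsf2, against 64.5 to 65.1 TPM. For Hnrnpf and Hnrnpa2b1 the outlying pool lay toward the KO values but still below all 3 KO pools.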

How the results depend on the processing

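With the replicate number as a block, 11 members were called higher in footprints and 0 lower, with 6 hnRNP genes higher, and in RNA 3 members, all 3 hnRNP genes (Hnrnpf, Hnrnph2 and Hnrnpk). Whether the numbers pair the pools was not settled, so the lower counts under the block stand as a limit on the calls. The single lower call in footprints numbered 0 with DESeq2, limma, library totals, the block and the covariate for replicate set, and 0 to 1 with a pool left out. Members higher in RNA numbered 7 with limma and 7 with the covariate, and hnRNP genes higher in RNA numbered 4 with the covariate. With each pool left out, 13 to 21 members were higher in footprints, 8 to 12 of them hnRNP genes, and 6 to 12 in RNA, 4 to 8 of them hnRNP genes. limma called 1 member lower in footprints per RNA. The WT ratio was 2.67 from CPM and 2.11 to 2.22 with a WT pool left out. Other scalings, no filter, a stricter filter and removal of a length trend left the member and hnRNP counts within 1.5 times. The stricter filter left 11 PRPF genes in RNA and moved their median from 0.14 to 0.064. Over all genes, footprint calls numbered 429 higher and 875 lower with the block, against 1177 and 1500 in the main fit. RNA calls over all genes numbered 73 and 131 with the block and 151 and 211 with the covariate, against 293 and 385. Calls over all genes with a pool left out are not given, so member counts there have no background beside them. DESeq2 gave no adjusted p for 24 members in RNA. RNA counts were lower than footprint counts, and the median standard error was 0.079 in RNA and 0.042 in footprints, so small RNA differences are harder to call.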
